A study of Mus musculus with 16 samples.

Results

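Paired and inhibitory immune receptors of myeloid cells were measured in the tibialis anterior, a hindlimb muscle, taken whole from mice of postnatal day 30. They are 10 genes, found by symbol among the 831 genes of the deposited table. There are 6 inhibitory receptors (Fcgr2b, Pirb, Lair1, Sirpa, Cd300a and Cd33) and 4 genes of the activating or adhesion class (Fcer1g, Clec7a, Cd300lb and Siglec1). There are 16 RNA-seq libraries, 4 for each genotype: mdx/miR-133b-/-, mdx, miR-133b-/- and Control. Mice of the mdx strain have a mutated Dmd gene, lack dystrophin and serve as a model for Duchenne muscular dystrophy; their genotype is labelled mdx-/-. The miR-133b-/- animals lack miR-133b, a microRNA of skeletal muscle, mdx/miR-133b-/- animals carry both changes, and Control animals are wild type. The labels do not give the design of the miR-133b allele, the genetic background or the sex. Nothing in them ties each library to an animal of its own, so the p-values reflect variation among these samples, part or all of which could be technical. Values are read counts multiplied by the authors' scaling factor for each library, called scaled reads below.

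These receptors sit on macrophages, granulocytes and other myeloid cells and share a signalling logic. Activating receptors carry, or pair with an adaptor that carries, a tyrosine motif called ITAM, which kinases of the Src family phosphorylate and which then recruits the kinase Syk. Inhibitory receptors carry the related ITIM, which once phosphorylated recruits phosphatases such as those encoded by Ptpn6 and Inpp5d and dampens the same cascade. Several families hold receptors of both kinds with similar outer domains, hence the name paired receptors. In dystrophic muscle, macrophages are the main infiltrating leukocytes and clear damaged fibres.

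The listed genes are a selection. In every one of them the mdx/miR-133b-/- and miR-133b-/- means differ at least 1.72-fold, either way, while other comparisons include genes that differ by no more than 1.02-fold. Any comparison with those libraries is touched by this choice, and mdx against Control is the one without them. It may still not be free of selection. The lowest mean over the libraries of any listed gene was 50.1 scaled reads. Of the receptors only Fcgr2b (mean 55.3) and Sirpa (119) exceeded that level in Control. The others reached it through the dystrophic groups, so their listing may favour a rise in mdx. Whether genes were chosen by level is not known. Libraries held 2356990 to 6000033 reads in these genes, and their full depth is unknown. Dmd and the miR-133b transcript were not analysed here, so no gene named here checks the genotypes. The tissue label matches the fibre markers: Ckm, Myh4, Actn3, Pvalb and Mb had at least 1805 scaled reads in every library. Library 2 of mdx/miR-133b-/- stands apart in these genes: it was the lowest of its group in 9 of the 10 receptors, and its summed macrophage markers reached 4336 scaled reads, against 11847 to 17451 in the other libraries of the group.

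Stretches of sequence near the receptor genes are shown as a description. They are miR-133b with its seed matches, since the miR-133b-/- animals lack it, and a motif of ETS factors. That motif was chosen because the receptor genes moved together, and whether ETS factors had a part in this was not tested. The mature microRNA, from RefSeq on GRCm38.p6 (chr1:20682834-20682855, + strand), is printed 5′ to 3′ with its seed, bases 2 to 8, in capitals.
mmu-miR-133b-3p: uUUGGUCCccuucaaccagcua
A 7-base match to that seed (GGACCAA, on the gene's strand) lies in the annotated 3′ UTR of 2 of the 10 genes, Sirpa (chr2:129631090-129631118, + strand) and Cd300a (chr11:114904531-114904559, + strand), from GENCODE M21 on GRCm38, with the match in capitals.
Sirpa: cagaatcctgaGGACCAAgaaggatccct
Cd300a: atggaaggagaGGACCAAgtatacagagt
The match is in 6 of 7 Sirpa transcripts with an annotated 3′ UTR and in 2 of 2 for Cd300a. Among the listed genes with an annotated 3′ UTR, 89 of 780 (11.4%) hold one, so such a match is not rare in this table.

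Promoter windows of 300 bases around the RefSeq start, most of it upstream, were found for 8 of the 10 genes; Sirpa and Siglec1 had no entry. The letters GGAAGT, a core that the ETS family of factors binds and that is part of the preferred site of the myeloid ETS factor PU.1, were searched on both strands. They occur in 4 of the 8, against 23.8% of the 32851 promoters of the same length. The windows below are from GRCm38.p6 and read along the gene's strand, which is the minus strand for each, with the core in capitals (ACTTCC where it lies on the other strand): Fcgr2b (chr1:170976085-170976114, 31 bases before the start), Pirb (chr7:3720483-3720512, 118 bases before), Cd33 (chr7:43533306-43533335, 152 bases before) and Cd300lb (chr11:114934534-114934563, 180 bases before).
Fcgr2b: ccgtttcttttcACTTCCccatttggactt
Pirb: tcacaccattgaGGAAGTcagagcatggtg
Cd33: catgtggaaagtGGAAGTgtttaatcttca
Cd300lb: cagattgtccagACTTCCccaccactggtc
The longer letters GAGGAAGT, which contain that core, occur in Pirb alone of the 8, against 3.20% of promoters. The CCAAT box letters CCAAT occur in Cd300lb, Cd33, Clec7a and Lair1, against 37.4% of promoters, and neither TGANTCA (AP-1, 7.81% of promoters) nor CACGTG (E-box, 7.15%) occurs in any of the 8. These matches describe letters and were not tested as sites.

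In dystrophic muscle every receptor gene was more abundant. All 10 rose in mdx against Control, 6 inhibitory and 4 activating or adhesion genes, with a median log2 difference of 2.19 (4.57-fold) and a range of 1.57 to 3.87. In none of the 10 did the libraries of the groups overlap. Of all 831 genes, 44.5% rose in this comparison by the same rule (66.2% changed in either direction), 46.2% were higher without overlap, and the median log2 difference was 0.44. Of the called genes 370 were higher and 180 lower, against 260 higher and 270 lower when relative log expression factors from these genes replaced the authors' factors. That scaling moved the median of all genes to 0.09 and that of the receptors to 1.85, with all 10 still higher. All tests are limma on log2(scaled reads + 1) across all 16 libraries, with Benjamini-Hochberg adjustment over the 831 genes at 0.05. RNA of the whole muscle cannot tell more myeloid cells from more receptor RNA per cell. The plot of scaled reads by library shows the receptors one by one, and the gene positions given next are from GENCODE M21 on GRCm38.

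**Figure D1:**
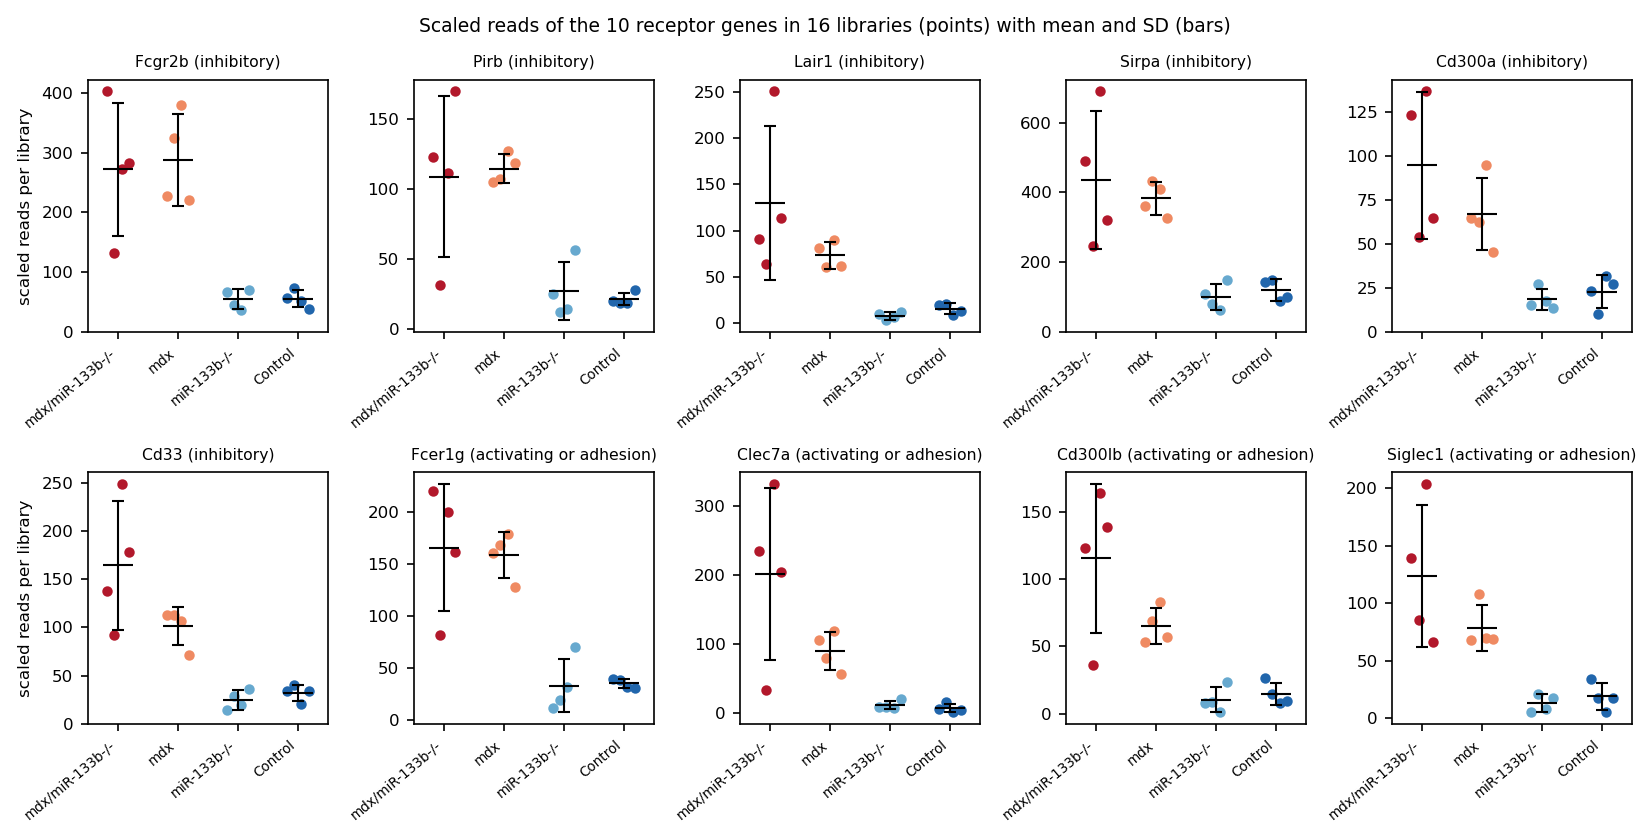
Scaled reads of each receptor gene (vertical axis, linear, own scale per gene) in the 4 libraries of mdx/miR-133b-/-, mdx, miR-133b-/- and Control, with mean and SD as bars. For all 10 genes each mdx library lies above each Control library, and the mdx/miR-133b-/- libraries spread more widely than the mdx ones.

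Fcgr2b (ENSMUSG00000026656, chr1:170958617-170976547, minus strand) encodes the inhibitory Fc receptor for IgG, which restrains activating Fc receptors on the same cell. It had 228, 325, 380.2 and 221 scaled reads in the mdx libraries, against 56.5, 73.9, 51.9 and 38.8 in Control. The lowest mdx library stood far above the highest Control library. The difference was 2.36 on the log2 scale (SE 0.32, adjusted p = 2.42e-05), or 5.14-fold, and the adjusted p was the smallest of the 10. Its reads are partly uncertain: 11.4% of the 50-base words of its longest transcript occur in other genes, mostly Fcgr3, and its exons overlap Gm38204 on the opposite strand. Whether counting used strand is not given in the sources used here.

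Pirb (ENSMUSG00000058818, chr7:3711409-3720391, minus strand) encodes paired immunoglobulin-like receptor B, which binds MHC class I molecules. It had 105, 107, 127 and 119 scaled reads in mdx and 20.0, 19.0, 18.3 and 27.6 in Control. The mdx libraries lay close together and far above all Control libraries. Its rise was 2.39 (SE 0.47, adjusted p = 0.000424). Its value is uncertain because 37.3% of the 50-base words of its transcript occur in other genes, first among them Gm14548.

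Lair1 (ENSMUSG00000055541, chr7:4003402-4063204, minus strand), the inhibitory receptor for collagens and C1q, had 81.4, 60.6, 90.0 and 61.2 scaled reads in mdx, against 19.3, 20.8, 8.04 and 12.7 in Control. The groups were far apart, with the highest Control library at 20.8 and the lowest mdx library at 60.6. It rose by 2.26 (SE 0.48, adjusted p = 0.000702).

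Sirpa (ENSMUSG00000037902, chr2:129592835-129632228, plus strand), the receptor whose binding to CD47 on other cells tells phagocytes not to engulf them, was the highest of the inhibitory genes per kilobase of exon in both groups. Its levels were 362, 431, 410.0 and 327 scaled reads in mdx and 143, 148, 87.0 and 98.5 in Control. The groups were separate, yet the difference was among the smaller of the 10, at 1.70 (SE 0.30, adjusted p = 0.000189), or 3.26-fold.

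Cd300a (ENSMUSG00000034652, chr11:114890041-114904654, plus strand) recognises phosphatidylserine and phosphatidylethanolamine exposed on dying cells. It had 64.9, 62.4, 94.9 and 45.5 scaled reads in mdx and 22.9, 10.1, 31.4 and 26.9 in Control. This was the smallest rise, 1.57 (SE 0.42, adjusted p = 0.00356), and the nearest libraries of the groups were 45.5 in mdx and 31.4 in Control. Cd33 (ENSMUSG00000004609, chr7:43524216-43544428, minus strand) is a sialic acid binding lectin whose inhibitory role is known mainly from the human protein. It had 113, 113, 107 and 71.8 scaled reads in mdx and 33.6, 40.4, 20.5 and 34.3 in Control, a rise of 1.64 (SE 0.36, adjusted p = 0.000844).

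In the activating class, Fcer1g (ENSMUSG00000058715, chr1:171229572-171234365, minus strand) encodes the ITAM-bearing adaptor shared by activating Fc receptors and several other receptors. It had 161, 168, 179 and 128 scaled reads in mdx, against 40.02, 38.5, 32.2 and 31.3 in Control. Here too the groups were far apart. The rise was 2.13 (SE 0.41, adjusted p = 0.000317).

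Clec7a (ENSMUSG00000079293, chr6:129461591-129472779, minus strand) encodes dectin-1, a lectin for fungal beta-glucans that signals to Syk through a single half-ITAM. It had 106, 78.9, 118 and 56.1 scaled reads in mdx and 5.72, 15.2, 1.46 and 3.73 in Control. In Control these stand for 2 to 24 reads, and its standard error was the largest of the set. It showed the largest rise of the 10, 3.87 (SE 0.64, adjusted p = 0.000106), or 14.6-fold, and ranked 7th from the top among the 831 genes. With a pseudocount of 10 in place of 1 the rise was 2.61. Its gene model in GENCODE M21 is typed as a polymorphic pseudogene.

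Cd300lb (ENSMUSG00000063193, chr11:114922781-114934386, minus strand), an activating relative of Cd300a that pairs with the adaptor encoded by Tyrobp, had 53.3, 68.5, 82.8 and 56.7 scaled reads in mdx, against 26.4, 14.5, 8.04 and 9.70 in Control. The rise was 2.20 (SE 0.60, adjusted p = 0.00419). Siglec1 (ENSMUSG00000027322, chr2:131069220-131086765, minus strand), the macrophage adhesion lectin sialoadhesin, lacks an inhibitory motif and binds sialic acids on other cells. It had 67.6, 108, 70.1 and 68.5 scaled reads in mdx and 34.3, 17.7, 5.85 and 17.9 in Control, a rise of 2.19 (SE 0.51, adjusted p = 0.00146). In both genes the Control libraries varied several-fold among themselves and still stayed below every mdx library.

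Levels of different genes are compared per kilobase of merged exon length. In mdx muscle Fcer1g stood highest, at 182 ± 25.1 scaled reads per kb (SD, n = 4), followed by Sirpa at 77.9 ± 9.56 and Fcgr2b at 49.9 ± 13.4. These 2 steps in the order had no overlap between libraries. From Fcgr2b down to Clec7a, Pirb, Cd300lb, Cd300a, Cd33, Siglec1 and Lair1 (9.80 ± 1.97) each gene overlapped the next. In Control the same 3 genes led, with Fcer1g at 40.6 ± 5.03, Sirpa at 24.3 ± 6.31 and Fcgr2b at 9.55 ± 2.51 scaled reads per kb. Clec7a was 4th in mdx, at 34.0 ± 10.5, and 9th in Control, at 2.47 ± 2.28; the genes ranked next to it overlapped it in both groups. In mdx/miR-133b-/- muscle Clec7a was 3rd, at 76.2 ± 47.3, and every pair of neighbours in the order overlapped.

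The 2 classes were set side by side as a description, with no test of a difference between them. The median log2 difference between mdx and Control was 1.98 for the 6 inhibitory genes and 2.19 for the 4 activating or adhesion genes, of which Clec7a stood at 3.87 and the other 3 at 2.13 to 2.20. In mdx, summed scaled reads came to 1027 ± 159.7 for inhibitory and 393 ± 61.2 for activating or adhesion genes (SD, n = 4). In Control they came to 266 ± 45.3 and 75.7 ± 25.9. These sums set 6 genes against 4 and were not divided by exon length, which ran from 874 bases in Fcer1g to 7771 in Cd33. Their ratio therefore does not show which class was more abundant, and it is used only to compare libraries. The ratio of the sums was 2.47, 2.59, 2.69 and 2.74 in the mdx libraries, against 2.77, 3.64, 4.57 and 3.81 in Control. Every mdx ratio lay below every Control ratio, though the nearest libraries, at 2.74 and 2.77, almost met. That narrow separation depended on which genes were summed, and Clec7a was the only gene left out here. With Clec7a left out of the sums, a choice made after seeing the data, the ratios were 3.39, 3.19, 3.65 and 3.34 in mdx and 2.93, 4.42, 4.71 and 4.05 in Control, so the groups overlapped. The mean log2 level of inhibitory genes minus that of activating or adhesion genes was lower in mdx by 0.61. That difference was -0.26 with a pseudocount of 10 and -0.18 without Clec7a.

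**Figure D2:**
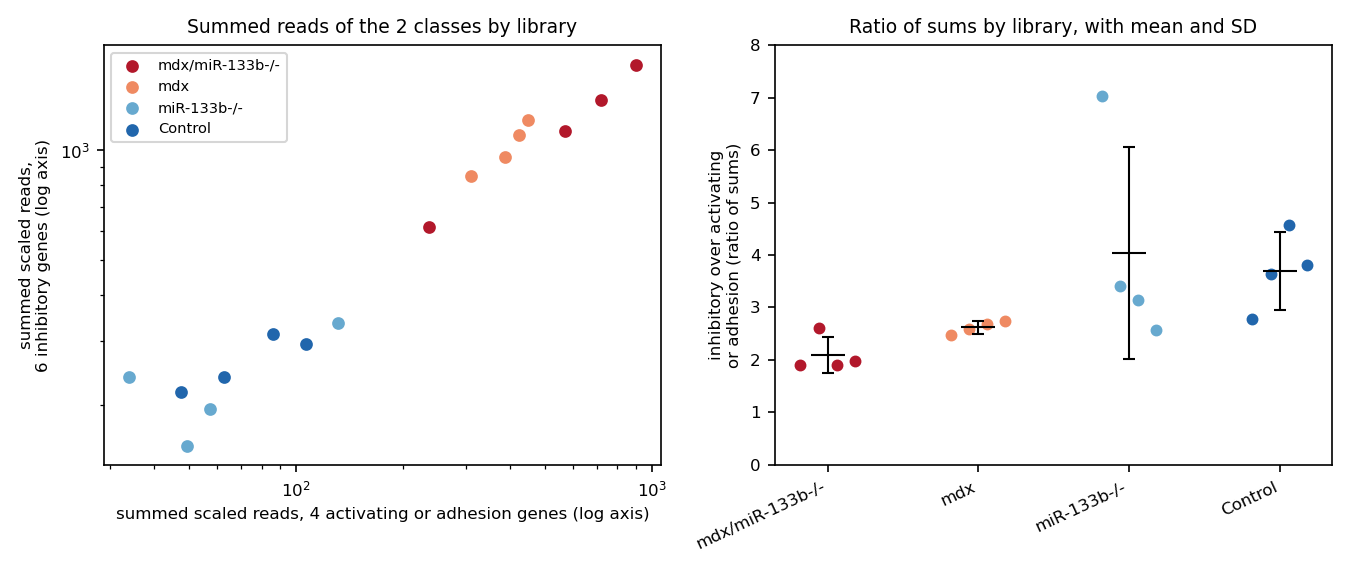
Left, summed scaled reads of the 6 inhibitory genes (vertical, log axis) against those of the 4 activating or adhesion genes (horizontal, log axis), 1 point per library. Right, their ratio by library with mean and SD: 2.10 ± 0.35 in mdx/miR-133b-/-, 2.62 ± 0.12 in mdx, 4.04 ± 2.02 in miR-133b-/- and 3.70 ± 0.74 in Control. Sums are not divided by exon length, so a ratio above 1 does not rank the classes. Clec7a is included, and without it the mdx and Control libraries overlap.

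Macrophage markers moved together with the receptors. Of 26 marker genes on the list, 16 are in the table, and 15 of them rose in mdx against Control, with a median log2 difference of 2.54. Among them were Adgre1, the macrophage surface protein F4/80 (2.50), the growth factor receptor Csf1r (2.19), the lysozyme Lyz2 (2.57), the pore-forming protein Mpeg1 (3.58), Ms4a7 (4.10) and the integrin subunit Itgax (4.31). Mrc1, the mannose receptor, did not pass (0.33, adjusted p = 0.234). Their summed level ranged from 4336 to 17451 scaled reads in mdx/miR-133b-/-, 7587 to 11684 in mdx, 1087 to 2979 in miR-133b-/- and 1598 to 2586 in Control, and 1 marker, Itgax, was at 0 in 1 library. The 4 listed dendritic cell markers, all MHC class II genes or their chaperone Cd74, also rose. So did the 4 listed fibroblast genes, with a median of 1.07, while the endothelial receptor Flt1 fell by 0.75 and the fibre genes Ckm and Myh4 fell by 0.45 and 0.60. None of the neutrophil, T and NK cell, mast cell and eosinophil or satellite cell markers on the lists was analysed here, and of the B cell markers only Ighm, described below. The share of reads from mitochondrial genes among the listed genes was 23.0 to 27.2% in mdx and 30.2 to 37.7% in Control, also without overlap. The part of these cells and of that share in the receptor differences was not tested.

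Set against the mean log2 level of the 16 macrophage markers in the same library, 9 of the 10 receptors had a lower mean in mdx than in Control. Sirpa was 0.33 ± 0.17 above the markers in mdx (SD, n = 4; 0.12 to 0.50) and 1.26 ± 0.27 above them in Control (0.96 to 1.60), with no overlap. Cd33 was at -1.59 ± 0.32 in mdx and -0.60 ± 0.44 in Control, without overlap, and Cd300a at -2.20 ± 0.28 in mdx and -1.15 ± 0.89 in Control, with overlap. Among the activating genes Cd300lb did not overlap either, at -2.21 ± 0.026 in mdx (-2.23 to -2.17) and -1.78 ± 0.30 in Control (-2.10 to -1.43). Clec7a had the higher mean in mdx, at -1.79 ± 0.42, against -3.04 ± 1.02 in Control, with overlap. Fcgr2b stayed close to the markers in both groups, at -0.10 ± 0.13 in mdx and 0.16 ± 0.44 in Control. These relative values are descriptions with no test. They restate that the markers, with a median rise of 2.54, rose more than each receptor except Clec7a. The selection of listed genes may also touch this baseline. Some markers, such as Itgax (mean 4.74) and Gpnmb (34.6), were below 50.1 scaled reads in Control, and others, such as Lyz2 (722), were above. The listing of the low markers may favour a rise in mdx.

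**Figure D3:**
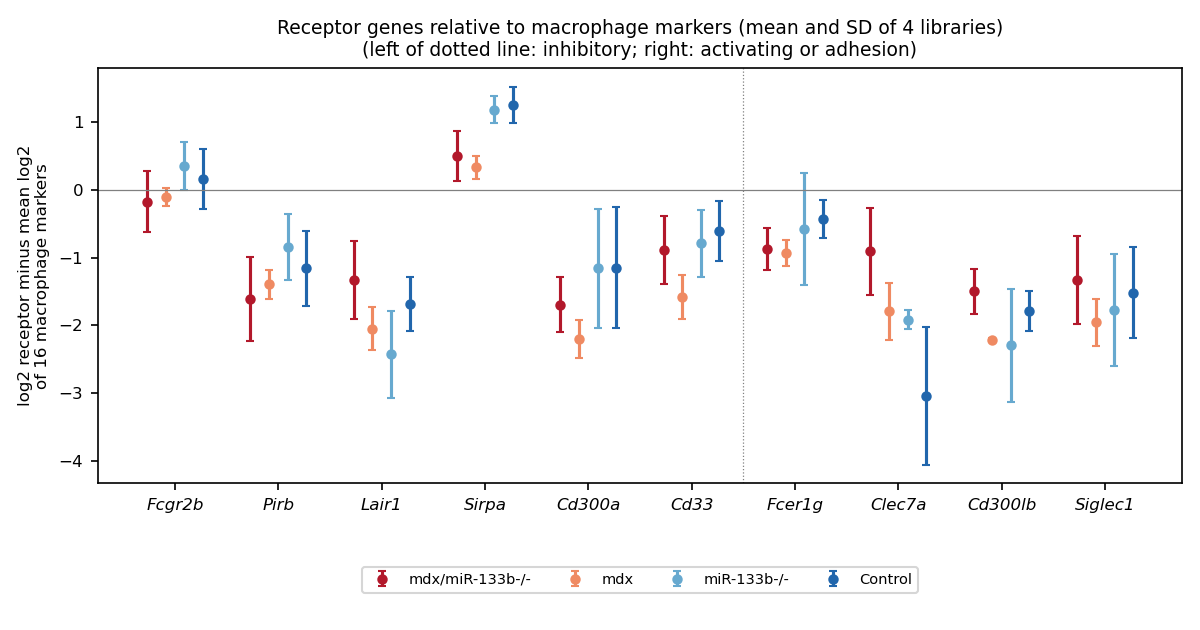
Log2 level of each receptor minus the mean log2 level of 16 macrophage markers in the same library, as mean and SD of 4 libraries in mdx/miR-133b-/-, mdx, miR-133b-/- and Control. Sirpa is above 0 in each group and lower in mdx (0.33) than in Control (1.26); Clec7a is below 0 in each group and higher in mdx (-1.79) than in Control (-3.04).

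The listed genes around these receptors were fewer. Neither the 17 other inhibitory nor the 27 other activating myeloid receptors on the lists were analysed here. Of 22 adaptors and kinases of the ITAM pathway 4 are in the table, and 2 rose in mdx against Control: the kinase Prkcd (0.98, SE 0.19, adjusted p = 0.000424) and Syk (0.89, SE 0.32, adjusted p = 0.0201). The adaptor Blnk (0.72, adjusted p = 0.209) and the Src family kinase Lyn (0.11, adjusted p = 0.654) did not pass; Blnk passed when the fit held the libraries of these groups alone (adjusted p = 0.0232). The Syk call was lost without mdx library 3 (adjusted p = 0.0525), Control library 1 (0.0512) or Control library 2 (0.0546), with GC and length trends removed together with the replicate block (0.80, adjusted p = 0.0519), and with the relative log expression factors (0.53, adjusted p = 0.0989). Of 13 ITIM effectors and related genes 3 are in the table and all rose: the adaptor Fyb (2.67), the leukocyte phosphatase Ptprc, or CD45 (2.41), and Inpp5d, the lipid phosphatase that ITIM receptors recruit (1.06, SE 0.28, adjusted p = 0.00364).

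Of 26 genes on the list of receptor ligands 7 are in the table, and 6 rose in mdx. The collagens Col3a1 (0.92, adjusted p = 0.00416), Col5a2 (1.17) and Col12a1 (1.36) and the complement genes C1qa (2.48), C1qb (2.24) and C1qc (2.47) belong to the 2 groups of proteins, collagens and C1q, that Lair1 binds. Ighm, the heavy chain of IgM, stood on the list beside the IgG chains that Fcgr2b binds and did not pass (-1.13, adjusted p = 0.0763), though it did with the relative log expression factors (-1.48, adjusted p = 0.0225), with the replicate block (0.0461) and without Control library 3 (-1.54, adjusted p = 0.0222). The C1q genes are also macrophage markers and count in both lists.

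Loss of miR-133b without the mdx mutation gave no call in any receptor. Between miR-133b-/- and Control limma called 0 of the 10 receptors and 0 of the 831 genes (0%), and limma-voom also called 0; at an unadjusted p under 0.05 the counts were 0 receptors and 84 genes (10.1%). The 10 log2 differences had a median of -0.33 and ran from -0.98 to 0.89. Lair1 had 10, 2.86, 5.89 and 11.4 scaled reads in miR-133b-/- and 19.3, 20.8, 8.04 and 12.7 in Control, a difference of -0.98 (SE 0.48, adjusted p = 0.498) with a 95% interval of -1.98 to 0.02. Clec7a had 9, 7.85, 7.36 and 19.4 in miR-133b-/- and 5.72, 15.2, 1.46 and 3.73 in Control (0.89, SE 0.64, adjusted p = 0.699). The groups overlapped in both genes, as in the other 8; of all genes 2.77% were higher and 1.93% lower without overlap. Of the genes with a seed match, Sirpa differed by -0.30 (95% interval -0.93 to 0.34) and Cd300a by -0.24 (-1.11 to 0.63), so neither a rise nor a fall was detectable. Library 4 of miR-133b-/- was the highest of its group in 8 of the 10 genes.

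The receptors were compared again in dystrophic muscle with and without miR-133b. Between mdx/miR-133b-/- and mdx, 0 of the 10 passed, also at an unadjusted p under 0.05 (31.9% of all genes), while limma called 162 of 831 genes (19.5%, with 7.46% higher and 12% lower) and limma-voom called 171 genes and 0 receptors. The log2 differences had a median of 0.49, from -0.29 for Pirb to 0.81 for Clec7a, and the libraries of the groups overlapped in all 10 genes, where 10.3% of all genes were higher and 16.2% lower without overlap. The median over all genes was -0.04. The inhibitory genes had a median of 0.26 and the activating or adhesion genes one of 0.59.

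Cd33 had 138, 92.1, 249 and 178 scaled reads in mdx/miR-133b-/- and 113, 113, 107 and 71.8 in mdx. Of the 4 mdx/miR-133b-/- libraries, 3 were above every mdx library. The difference of 0.62 (SE 0.36, adjusted p = 0.241) had the smallest p of the 10, with a 95% interval of -0.12 to 1.36. Clec7a had 235, 32.5, 332 and 205 scaled reads in mdx/miR-133b-/- and 106, 78.9, 118 and 56.1 in mdx (0.81, 95% interval -0.54 to 2.15). Cd300lb had 123, 36.4, 164 and 138 in mdx/miR-133b-/- and 53.3, 68.5, 82.8 and 56.7 in mdx (0.64, 95% interval -0.62 to 1.90). In both genes 3 libraries of mdx/miR-133b-/- lay above all mdx libraries and library 2 lay below them. Lair1 had 90.3, 63.6, 251 and 113 in mdx/miR-133b-/- and 81.4, 60.6, 90.0 and 61.2 in mdx (0.64, 95% interval -0.36 to 1.64). Its highest library, mdx/miR-133b-/- 3, stood far above the rest.

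The remaining receptors spread on both sides of mdx. Fcgr2b had 404, 131, 274 and 282 scaled reads in mdx/miR-133b-/- (mean 273 ± 112, SD, n = 4) and a mean of 289 ± 77.4 in mdx. Pirb had 123, 31.8, 111 and 169.9 in mdx/miR-133b-/- and a mean of 114 ± 10.3 in mdx. Fcer1g had 221, 81.5, 199.8 and 161 in mdx/miR-133b-/- and a mean of 159 ± 21.9 in mdx. In these genes the means were close, and library 2 of mdx/miR-133b-/- lay below every mdx library. Sirpa had 488, 245, 691 and 321 in mdx/miR-133b-/- and a mean of 383 ± 47.0 in mdx. Cd300a had 123, 53.7, 137 and 64.5 in mdx/miR-133b-/- and a mean of 66.9 ± 20.6 in mdx. Siglec1 had 139, 85.5, 204 and 66.5 in mdx/miR-133b-/- and a mean of 78.6 ± 19.8 in mdx. In each of the last genes libraries 1 and 3 of mdx/miR-133b-/- lay above every mdx library. The Sirpa difference was 0.09 (95% interval -0.55 to 0.72) and the Cd300a difference 0.43 (-0.44 to 1.30), so the seed-match genes again showed no detectable change. Without mdx/miR-133b-/- library 2 the median over the 10 was 0.67 with 0 called, Fcgr2b (0.16), Pirb (0.21) and Fcer1g (0.28) turned positive, and Clec7a (1.54) and Cd300lb (1.12) moved further up; without library 3 the median was 0.24. Macrophage markers had 0 of 16 called between these groups, with a median of -0.06 and a range from -0.87 (C1qa) to 0.62 (Cybb). The 4 dendritic cell markers had 0 called and a median of -0.79. Of the 10 receptors set against the macrophage markers, Cd300lb alone did not overlap. It was at -1.71 to -1.01 in mdx/miR-133b-/- and -2.23 to -2.17 in mdx, a description with no test. Of the 5 listed fibre markers, 4 fell in mdx/miR-133b-/- against mdx, and their part in the receptor values was not tested.

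**Figure D4:**
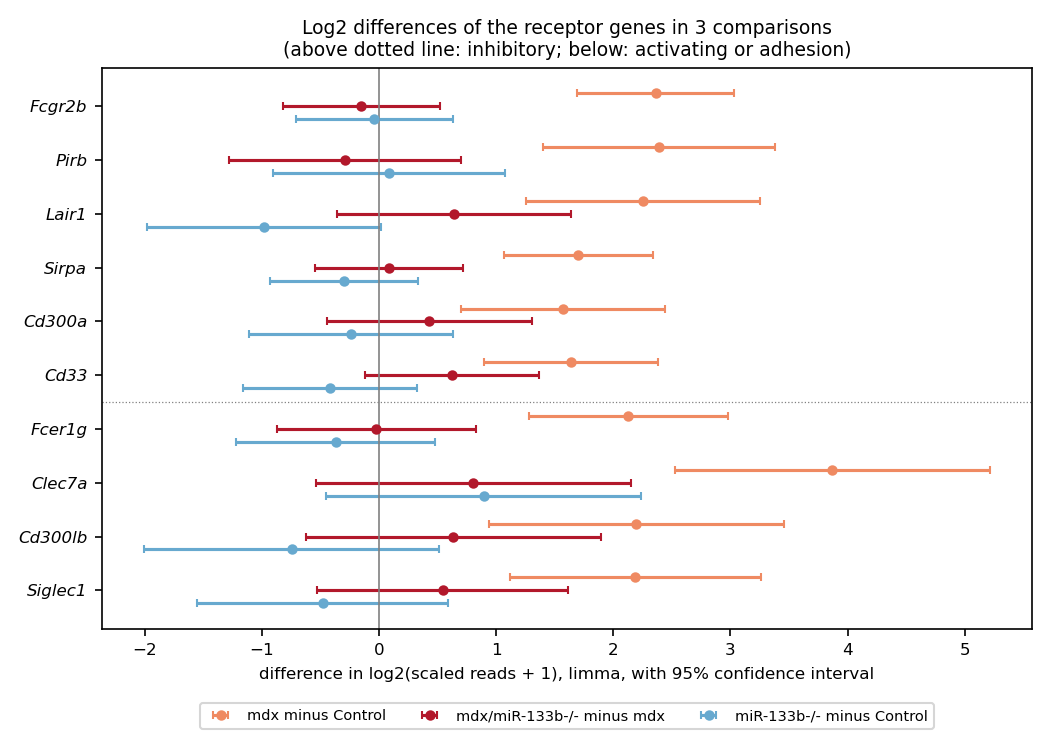
Difference in log2(scaled reads + 1) with its 95% confidence interval for each receptor (rows) in mdx minus Control, mdx/miR-133b-/- minus mdx, and miR-133b-/- minus Control. All mdx minus Control intervals lie above 0, between 0.70 and 5.21, and all intervals of the other comparisons include 0.

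Among the genes of the signalling lists, Lyn rose in mdx/miR-133b-/- against mdx while the receptors did not pass. This Src family kinase phosphorylates both ITAM and ITIM motifs. It had 633, 745, 1134 and 1089.6 scaled reads in mdx/miR-133b-/- and 517, 491, 488 and 409 in mdx, with no overlap. The difference was 0.88 (SE 0.22, adjusted p = 0.0130, 1.84-fold); without mdx/miR-133b-/- library 4 it was 0.77 with an adjusted p of 0.05002. Syk, Blnk and Prkcd did not pass, with adjusted p from 0.388 to 0.989, and neither did Fyb, Ptprc and Inpp5d. On the ligand list Ighm fell by 1.64 (SE 0.55, adjusted p = 0.0419) between groups that overlapped. It encodes a chain of IgM, not of the IgG that Fcgr2b binds. It had 85.7, 38.4, 122 and 39.5 scaled reads in mdx/miR-133b-/- and 312, 166, 301 and 102 in mdx. That call was lost without mdx/miR-133b-/- library 2 or 4 (adjusted p = 0.102 and 0.133), without mdx library 1, 2 or 3 (0.125, 0.0626 and 0.123), and with limma-voom (0.101). It was also lost with GC and length trends removed (0.115) and with no variance trend (0.0636). The 6 other genes of the ligand list did not pass.

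Against Control, mdx/miR-133b-/- muscle also showed all 10 receptors higher, with no overlap, in a comparison where limma called 91.2% of the genes (54.3% higher) and 44.9% were higher without overlap. Of the called genes 451 were higher and 307 lower, against 323 and 332 with the relative log expression factors. This comparison shares its Control libraries with mdx against Control. Log2 differences ran from 1.79 for Sirpa to 4.68 for Clec7a (25.6-fold), with a median of 2.24, and the median over all genes was 0.73. The values for mdx/miR-133b-/- and for mdx, each against Control, were 2.90 and 2.26 for Lair1, 2.83 and 2.20 for Cd300lb, 2.73 and 2.19 for Siglec1, 2.21 and 2.36 for Fcgr2b and 2.10 and 2.39 for Pirb. The ratio of inhibitory to activating or adhesion sums was 1.90, 2.62, 1.90 and 1.98 in mdx/miR-133b-/-, below every Control library and, in 3 of 4 libraries, below every mdx library. Without Clec7a it was 2.83, 3.03, 3.02 and 3.08 in mdx/miR-133b-/-, of which 3 lay above the lowest Control library, at 2.93. All of these lay below every mdx library, at 3.19 to 3.65. Against miR-133b-/- the receptors were 2.01 (Pirb) to 3.88 (Lair1) higher in mdx/miR-133b-/-, where the median over all genes was 0.945. Of the 10 receptors 9 did not overlap, but the share of all genes without overlap is not given here. Every listed gene differs in this comparison, so no test is given.

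Whether losing miR-133b acted differently in dystrophic muscle was read from the interaction, the mdx/miR-133b-/- minus mdx difference less the miR-133b-/- minus Control difference. Neither limma nor limma-voom called a receptor, while limma called 8 of 831 genes (0.963%). The values ran from -0.38 (Pirb) to 1.62 (Lair1), with a median of 0.53. Lair1 alone had an unadjusted p under 0.05 (1.62, SE 0.68, adjusted p = 0.197, unadjusted p = 0.0266), where 20.7% of all genes did, and under the alternatives its adjusted p ranged from 0.164 to 0.378. Cd33 followed at 1.04 (SE 0.50, adjusted p = 0.242).

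Levels of the receptors were correlated across the 16 libraries. The 45 pairs had a median Pearson correlation of 0.900 (0.759 to 0.960) in log2 level, which includes the differences between genotypes. After the group means were removed the median was 0.549 (-0.098 to 0.825). Cd300a was the weakest, with pairs from -0.098 (Lair1) to 0.216 (Siglec1). Siglec1 was also weak with Pirb (0.094) and Fcgr2b (0.166), though not with Cd33 (0.707). Values of a library share its depth and its scaling factor. The genes most like the receptors in level, by mean correlation with the 10, were Mpeg1 (0.938), the lymphocyte and myeloid adhesion receptor Cd84 (0.935), the leukocyte actin-bundling protein Lcp1 (0.934), the prostaglandin D synthase Hpgds (0.931) and the metalloprotease Adam8 (0.928). With group means removed they were Mpeg1 (0.683), the endosomal RNA sensor Tlr7 (0.669), the lipid phosphatase Plpp6 (0.669), Hpgds (0.660) and Csf1r (0.657). Unlike the others named, Plpp6 was lower in mdx than in Control (-0.59, limma adjusted p = 0.0465), between groups that overlapped. It was also lower in mdx/miR-133b-/- than in mdx (-0.78, adjusted p = 0.0385). Its lowest correlation with a single receptor was 0.048. These are correlations of single genes over 16 libraries, given as descriptions.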

How the data were processed

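RNA was isolated from whole muscle with a Bio-Rad Aurum kit and DNase treatment, per the labels' protocols. HISAT2, HTSeq and GRCm38 are named, without versions, roles or order, in the submitters' processing notes; use of strand is not given in the sources used here. The deposited signal values are scaled read counts: dividing each library by 1 factor of the authors gave whole numbers, within 0.001, for 100% of values. Libraries were grouped by title, since the description names another code for 14 of 16. All 831 gene IDs matched GENCODE M21. limma 3.58.1 was fitted to log2(value + 1), 1 mean per group, using a trended prior variance and adjusting p-values by Benjamini-Hochberg; differences on this scale understate changes of low genes. The planned count-model test was not run because the table is scaled, and limma-voom on recovered reads was added after the data were seen. The fit was tested on simulated data. Alternatives changed the pseudocount, filter, scaling, trend, block and libraries. The 10 genes, the 17 lists and the naming rule (every receptor, at most 8 genes of the macrophage, ligand, ITAM and ITIM lists, at most 4 of others, the 5 nearest genes by each correlation) were chosen with earlier results of these data known. Over 24 pairs of replicates none agreed within counting noise.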

Additional observations from a re-analysis of the deposited data

Results flagged for a closer look

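In 3 of the 40 combinations of receptor and group, 1 library lay far from the other 3, where chance flags about 1 in 20. Cd33 had 71.8 scaled reads in mdx library 4, against 107 to 113 in the other mdx libraries. Siglec1 had 108 scaled reads in mdx library 2, against 67.6 to 70.1 in the others. Clec7a had 19.4 scaled reads in miR-133b-/- library 4, against 7.36 to 9 in the others, and that library was the highest of its group in 8 of 10 receptors. Leaving out any of these libraries changed no receptor's call.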

How the results depend on the processing

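The 10 calls in mdx against Control, the 10 in mdx/miR-133b-/- against Control and the 0 elsewhere held under every alternative run, except that a minimum mean of 100 kept 2 of the 10 receptors (Fcgr2b and Sirpa, among 634 genes) and called 2 in each of these comparisons. Relative log expression factors moved the median of all genes in mdx against Control to 0.09, against 0.44, and that of the receptors to 1.85, with 49.1% of calls higher in place of 67.3%; in mdx/miR-133b-/- against Control 49.3% were higher in place of 59.5%. Inhibitory minus activating or adhesion level in mdx against Control was -0.26 with a pseudocount of 10 and -0.18 with Clec7a left out, an alternative added after the data were seen, which gave -0.35 in mdx/miR-133b-/- against Control and turned miR-133b-/- against Control to 0.22, against -0.14. With GC and length trends removed the class difference was -0.52 in mdx/miR-133b-/- against mdx and -1.31 in mdx/miR-133b-/- against Control; the cause was not tested.

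Values that changed sign were all uncalled: the Clec7a interaction with a pseudocount of 10 (0.41), Fcgr2b in miR-133b-/- against Control (0.12) and Lyn in mdx against Control (-0.25) with relative log expression factors, and Fcer1g in mdx/miR-133b-/- against mdx with GC and length trends removed (0.40, and 0.40 with the replicate block). Leaving out 1 library gave, in mdx/miR-133b-/- against mdx, -0.17 to 0.33 for Sirpa, -0.38 to 0.16 for Fcgr2b, -0.19 to 0.28 for Fcer1g and -0.58 to 0.21 for Pirb; in miR-133b-/- against Control, -0.82 to 0.0020 for Fcer1g, -0.19 to 0.14 for Fcgr2b and -0.35 to 0.37 for Pirb; and in the interaction, -0.34 to 0.20 for Fcgr2b, -0.67 to 0.12 for Pirb, -0.57 to 0.64 for Clec7a and -0.024 to 0.79 for Fcer1g.

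Same-numbered libraries correlated between -0.283 and 0.155 after group means were removed. Differently numbered libraries were not compared, so this shows no clear pairing but cannot exclude it. With the replicate block the receptor counts stayed at 10, 0, 0, 10 and 0, with 541 genes called in mdx against Control and 120 in mdx/miR-133b-/- against mdx. That last count, 162 in the report, was 55 with GC and length trends removed (56 with the block), 49 and 70 without mdx/miR-133b-/- libraries 4 and 3, and 71, 56 and 84 without mdx libraries 1, 3 and 4; the 8 interaction calls became 14 with relative log expression factors, 4 with a minimum mean of 100, 5 with GC and length trends removed, and 15 and 110 without mdx/miR-133b-/- library 1 and miR-133b-/- library 2. The planned count-model test was not run. Depth limits Clec7a, Cd300lb, Lair1 and Siglec1, with few reads in Control.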
